A study of Mus musculus with 36 samples.

Results

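A set of 49 genes of DNA replication and mitosis was followed in mouse fibroblasts grown alone or with tumour cells. The rows of the count table whose symbol equalled one of the 49 names were taken, which gave 49 of 39017 genes, 1 row each. Of these, 24 act in DNA replication and 25 in mitosis. All 49 were among the 14439 genes tested, and the lowest count of any of them in a library was 151.

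A dividing cell copies its DNA in S phase and separates the copies in mitosis. Before S phase the MCM helicase is loaded at replication origins by CDC6 and CDT1, cyclin E and its kinase fire the origins, and ribonucleotide reductase, thymidylate synthase and thymidine kinase supply the nucleotides. In mitosis cyclin B with CDK1, the Polo and Aurora kinases, the spindle checkpoint and the kinesins condense, align and part the chromosomes. Transcription of replication genes is driven largely by E2F factors, and that of mitotic genes later in the cycle by the MuvB complex with B-MYB and FOXM1, so the 2 subsets of the set mark different stages of the cycle. In bulk RNA, fewer cells in a stage and less RNA per cell cannot be told apart.

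The cells were pancreatic fibroblasts of C57BL/6 mice. In the mono-culture they were grown by themselves, under a sample name (PSC) that the labels do not spell out. In each co-culture they were kept for 48 h with a GFP-marked tumour sub-clone, E, H, K, M, N, T or V, or with a line titled KPC1, which the labels leave unexplained, and the tumour cells were then removed by flow sorting on GFP. Each of the 9 groups had 4 libraries, 36 in all, and the labels do not say whether these came from separate animals or cultures, so p-values measure the spread between these libraries, which may be technical. Each tumour line was 1 clone or 1 named line, and the 8 comparisons with the mono-culture share its 4 libraries.

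Library totals ran from 12532122 to 21985538 counts. The 10 fibroblast markers, among them Col1a1 and Col1a2, summed to means of 14849 (KPC1) to 26774 CPM (clone M; CPM is counts scaled to 1e6 per library after TMM), with 21949 ± 871 CPM in mono-culture. Of 15 epithelial markers, 7 had at most 3 counts over the 4 mono-culture libraries. Their sum was 1.14 to 1.83 CPM in mono-culture libraries and higher in every co-culture library, from 20.02 to 867 CPM, mostly Krt8 and Krt18, while Epcam was at 0.166 CPM or less in each co-culture mean. The 6 leukocyte markers in the table summed to means of 5.48 to 13.7 CPM and the 5 endothelial markers to 1.63 to 3.598 CPM.

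Promoter sequence was looked at because the 2 subsets are thought to answer to different factors. The RefSeq table for GRCm38.p6 (the assembly also known as mm10, the build of the counts) held a window of 300 bases, from 250 before to 50 after a transcription start, for 39 of the 49 members, 19 replication and 20 mitotic. Both strands were searched for E2F words (TTTCCCGC, TTTCGCGC, TTTGCCGC or TTTGGCGC), for the cell cycle homology region, CHR, bound by MuvB (TTTGAA or TTCGAA), and for CCAAT, the NF-Y word. The 39 members had 45 windows, and a gene was counted when any of its windows held the word. An E2F word stood in 9 of 19 replication genes (47.4%) and 1 of 20 mitotic genes (5.0%), against 2.6% of the 27025 genes with a window. The CHR word stood in 3 replication genes (15.8%) and 16 mitotic genes (80.0%), against 21.7% of all. CCAAT stood in 57.9% and 90.0%, against 41.1% of all. E2F words were thus more frequent in the replication subset and CHR and CCAAT words in the mitotic subset, as a description of letters and not of binding.

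The 250 bases before the start are shown for 4 members whose levels are described below, 2 of each subset, 1 that rose with some tumour lines and 1 that fell with most, with the words searched in capitals. Rrm2 lies on the plus strand at chr12:24708004-24708253, Mcm6 on the minus strand at chr1:128359706-128359955, Mki67 on the minus strand at chr7:135716380-135716629 and Ccnb2 on the minus strand at chr9:70421555-70421804.
Rrm2: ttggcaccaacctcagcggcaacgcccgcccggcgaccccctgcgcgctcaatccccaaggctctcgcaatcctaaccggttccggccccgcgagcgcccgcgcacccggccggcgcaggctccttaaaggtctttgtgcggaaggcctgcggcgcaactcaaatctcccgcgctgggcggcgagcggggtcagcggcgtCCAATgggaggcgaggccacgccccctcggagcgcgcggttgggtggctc
Mcm6: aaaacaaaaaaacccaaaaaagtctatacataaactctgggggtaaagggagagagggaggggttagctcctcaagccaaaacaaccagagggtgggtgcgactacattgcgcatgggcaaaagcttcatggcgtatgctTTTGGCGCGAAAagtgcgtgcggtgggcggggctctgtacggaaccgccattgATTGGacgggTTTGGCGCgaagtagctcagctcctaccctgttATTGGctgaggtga
Mki67: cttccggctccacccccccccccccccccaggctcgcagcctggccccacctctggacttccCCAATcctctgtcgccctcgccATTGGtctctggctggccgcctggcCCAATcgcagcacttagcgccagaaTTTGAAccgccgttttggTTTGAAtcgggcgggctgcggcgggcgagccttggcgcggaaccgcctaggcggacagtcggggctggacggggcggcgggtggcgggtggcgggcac
Ccnb2: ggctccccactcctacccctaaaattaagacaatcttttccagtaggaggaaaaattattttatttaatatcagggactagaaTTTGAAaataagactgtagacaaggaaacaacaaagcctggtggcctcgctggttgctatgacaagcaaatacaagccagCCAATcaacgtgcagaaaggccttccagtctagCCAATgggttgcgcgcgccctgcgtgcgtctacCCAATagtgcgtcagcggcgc
Mcm6, a helicase subunit, carries 3 E2F words, 2 of which overlap, and 2 CCAAT words. Mki67, which encodes the proliferation antigen Ki-67, and Ccnb2, a B-type cyclin, carry CHR and repeated CCAAT words and no E2F word. Rrm2, the regulated subunit of ribonucleotide reductase, has a single CCAAT word and none of the E2F or CHR words searched. In the bases shown the CHR words follow the CCAAT words in Mki67 and precede them in Ccnb2. The levels of these 2 genes moved in opposite directions below, and the part of the words in this was not tested.

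Levels of the members were compared with each other per gene length. On the deposited RPKM scale, which divides by gene length, the highest mono-culture levels were those of Pcna (the sliding clamp of the DNA polymerases) at 227 ± 7.04, Mcm6 at 153 ± 2.91 and Mcm4 at 124 ± 7.52. The lowest were those of the kinetochore protein gene Cenpf at 7.47 ± 1.25, the checkpoint kinase gene Ttk at 9.17 ± 1.44 and the licensing factor gene Cdc6 at 9.89 ± 1.71. Over the 9 groups the group means of a member spanned from 1.27-fold (Mcm4) to 3.52-fold (Rrm2) in CPM. Clone V gave the highest group mean for 27 of the 49 members and clone H for 8, while the mono-culture was highest for 10. Clone K gave the lowest mean for 22 and clone N for 15.

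The first comparison asked whether the fibroblasts of each co-culture differed from those of the mono-culture in these genes. A member was called when its edgeR adjusted p was under 0.05. With clone V, 11 higher and 3 lower of the 24 replication members and 10 higher and 1 lower of the 25 mitotic members were called, where 29.4% of all tested genes were higher and 28.9% lower. With clone H the counts were 7 higher and 6 lower for replication, where the higher share was near the 27.8% of all genes and the lower share near their 26.4%, and 9 higher and 2 lower for mitosis. With KPC1 the subsets parted: 4 higher and 9 lower replication members against 8 higher and 1 lower mitotic members, with 30.5% of all genes higher and 28.5% lower. The mitotic share of higher calls with KPC1 was near that of all genes.

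With the other 5 clones calls were mostly lower and mostly in the replication subset, a split that moved with the fit for clones K and M. Clone N gave 0 higher and 15 lower of the replication members and 0 higher and 3 lower mitotic members, against 19.7% of all genes higher and 19.2% lower. Clone M gave 0 higher and 13 lower and 0 higher and 1 lower, against 12.2% and 10.8%. Clone K gave 0 higher and 10 lower and 0 higher and 6 lower, against 10.4% and 8.69%. Clone T gave 2 higher and 9 lower and 3 higher and 2 lower, against 25% and 24.7%. Clone E gave 0 higher and 6 lower and 0 higher and 1 lower, against 16.5% and 15.5%. With each of these 5 clones the replication share lower stood above that of all genes, while the mitotic share lower was below it with each but clone K.

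Some of these counts rested on single libraries. The 16 members lower with clone K became 5 without clone K replicate 3, 10 without its replicate 2, and 8, 8, 10 and 6 without mono-culture replicates 1 to 4. Its 10 replication members ranged from 4 to 10 in these fits, and its 6 mitotic members from 1 (without clone K replicate 3) to 10 (without clone K replicate 4). The 14 with clone M became 7 without clone M replicate 3, and the 6 replication members lower with clone H became 3 without clone H replicate 3. The 3 mitotic members lower with clone N became 9 without clone N replicate 4, 0 without its replicate 2 or 3, and 1 without any 1 mono-culture library. The 5 members higher with clone T became 3 without clone T replicate 2. Without scaling beyond library size the split of members called with clone V moved from 21 higher and 4 lower to 17 and 7, and with clone T from 5 and 11 to 4 and 15.

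**Figure D1:**
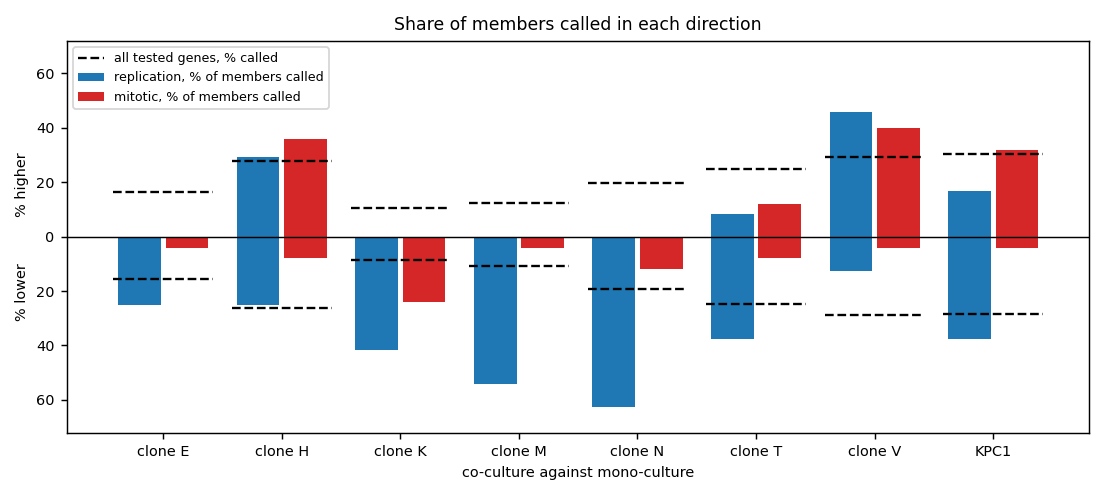
Share of replication members (blue, of 24) and mitotic members (red, of 25) called higher (upwards) or lower (downwards) than the mono-culture in each co-culture, in percent, with the share of all 14439 tested genes called in that direction as dashed lines. The blue bars reach furthest down with clones N and M, and both colours reach furthest up with clones H and V.

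The size of these shifts was small. Over the replication members the median log2 fold change was 0.29 with clone V and 0.13 with clone H, and lay between -0.40 (clone N) and -0.12 (KPC1) with the other lines. Over the mitotic members it was 0.18 with clone V, 0.17 with clone H, 0.089 with KPC1 and -0.42 with clone K. The median over all tested genes was within 0.012 of 0 in each comparison. Without scaling beyond library size, where the median of all genes moved to -0.081 (clone H), -0.083 (clone V) and -0.083 (KPC1), the replication median was 0.032 with clone H and 0.19 with clone V, and the mitotic medians of clones H and V were 0.080 and 0.084. That of KPC1 turned sign, to -0.0030. The replication calls with clone H were then 6 higher and 7 lower.

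As a summary per library, the mean log2 CPM of each subset was taken. The replication mean was 7.01 ± 0.049 (SD, n = 4) in mono-culture, with libraries from 6.95 to 7.05. All 4 clone V libraries lay above that range, at 7.54, 7.16, 7.16 and 7.14, and all 4 libraries of clones K, M, N and T lay below it. Clone N was lowest, at 6.73, 6.54, 6.53 and 6.69. Clones E and H and KPC1 overlapped the mono-culture.

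The mitotic mean separated fewer groups. It was 6.58 ± 0.095 in mono-culture, with libraries from 6.50 to 6.71. The 4 clone H libraries stood at 6.71, 6.99, 6.81 and 6.81, the lowest of them just inside the mono-culture range. Only clone K was apart from the mono-culture, with 6.29, 6.28, 5.80 and 6.42, all below. In clone N the libraries were at 6.33, 6.28, 6.11 and 6.90, of which replicate 4 was above every mono-culture library and the other 3 below. KPC1 spread from 6.49 to 7.10.

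The replication mean minus the mitotic mean was 0.34 to 0.55 in mono-culture libraries. Relative to the mono-culture mean it differed by -0.28 ± 0.25 (SD, n = 4) with KPC1, -0.22 ± 0.29 with clone N, -0.19 ± 0.15 with clone T and 0.11 ± 0.20 with clone K, and in all 8 co-cultures the libraries overlapped the mono-culture. The same library was highest in both subsets in 5 of the 9 groups and lowest in both in 4. Replicate 4 had the lowest difference of its group in the mono-culture (0.34), KPC1 (-0.12) and clones H (0.15) and K (0.28). It did so too in clones N (-0.21), T (0.020) and V (0.20), while replicate 3 did in clones E (0.28) and M (0.17). The mitotic mean was highest in replicate 4 of the mono-culture, clones K, N, T and V and KPC1, and in replicate 1 or 2 of E, H and M.

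**Figure D2:**
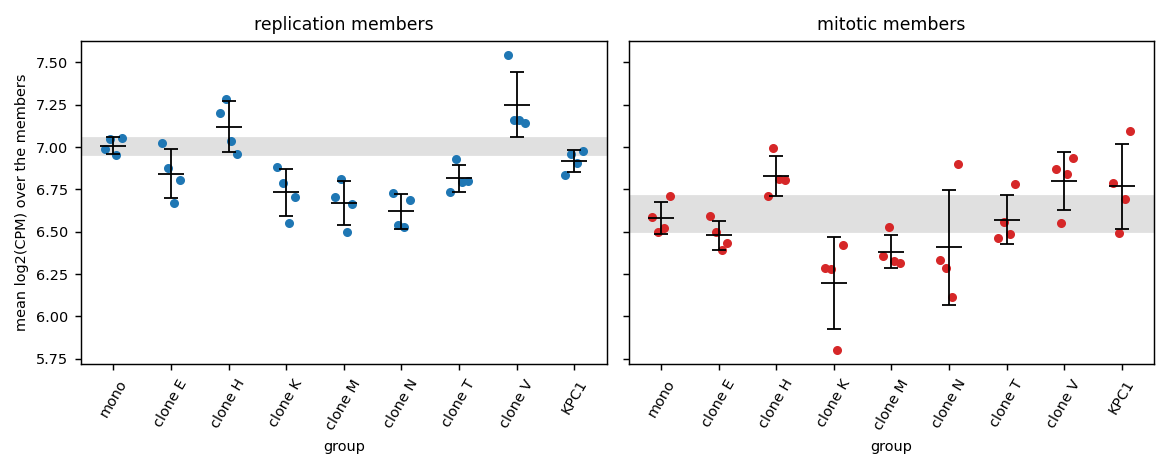
Mean log2 CPM over the 24 replication members (left) and the 25 mitotic members (right) in each library, by group, with the group mean and SD (n = 4) in black and the range of the mono-culture libraries shaded. Clone V lies above the shaded band and clones K, M, N and T below it on the left, while on the right only clone K lies apart from it.

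Among the nucleotide supply genes of the replication subset, Rrm2 had the widest range of all members. It was 51.7, 53.2, 52.2 and 59.6 CPM alone, 208, 98.5, 112 and 123 CPM with clone V, 116, 172, 128 and 102 CPM with clone H and 93.6, 101, 101 and 101 CPM with KPC1. No library of these 3 co-cultures overlapped the mono-culture. The log2 fold change was 1.32 ± 0.17 (SE, adjusted p = 1.24e-07) with clone V, 1.26 ± 0.17 (adjusted p = 4.07e-07) with clone H, 0.87 ± 0.17 (adjusted p = 5.76e-05) with KPC1 and 0.51 ± 0.17 (adjusted p = 0.0133) with clone T. With clone K, Rrm2 was 43.3, 38.8, 32.6 and 38.8 CPM, below every mono-culture library, at -0.50 ± 0.17 (adjusted p = 0.0379), a call lost in 7 of the 8 fits that left out 1 library.

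Tk1, the thymidine salvage kinase, went the other way and was lower in all 8 co-cultures. It stood at 74.8, 70.5, 67.2 and 72.9 CPM alone, 43.2, 37.7, 37.6 and 45.5 CPM with KPC1 and 52.2, 44.6, 38.8 and 46.6 CPM with clone V. Its log2 fold change ran from -0.80 (KPC1) and -0.72 (clone T) to -0.32 (clone M), and the calls with clones E, K and M were lost in 6 or 7 of 8 fits that left out 1 library. Tyms, thymidylate synthase, was called only with clone V (0.60 ± 0.16, adjusted p = 0.00162). Rrm1, the large reductase subunit, was lower with clones M, N and T, at -0.43, -0.53 and -0.38, where the calls with M and T each failed without 1 library (clone M replicate 3 and clone T replicate 1). The 2 reductase subunits thus differed in direction with clone T.

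The MCM helicase genes were lower or not called in every co-culture. With edgeR none of the 6 was called higher, and the number lower was 5 with clones M and N and KPC1, 3 with E, K and T and 2 with H. With clone V edgeR called 0 of them while DESeq2 called 2, Mcm2 higher and Mcm6 lower, and 3 were at an unadjusted p under 0.05. Mcm5 stood at 258, 276, 250.4 and 284 CPM alone and at 173, 143, 139 and 161 CPM with clone N, where its log2 fold change was -0.79 ± 0.12 (adjusted p = 3.76e-06). With clone V it was 269, 233, 204 and 193 CPM, overlapping the mono-culture, at -0.25 ± 0.12 (adjusted p = 0.0727). Mcm6 showed the same order at a higher level: 417, 429.8, 429 and 429.5 CPM alone, 294, 285, 306 and 295 CPM with clone N (-0.53 ± 0.073, adjusted p = 8.26e-07) and 398, 393, 372 and 364 CPM with clone V, where each library was below the mono-culture but the test did not pass (-0.16 ± 0.072, adjusted p = 0.0575). Mcm2 was 633, 468, 379 and 392 CPM with clone V, of which 2 libraries were above the mono-culture, against 368, 410.4, 373 and 390.2 CPM alone, and was not called (adjusted p = 0.0585). Mcm4 was called only with KPC1, at -0.31 ± 0.084 (adjusted p = 0.00191).

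The licensing genes Cdc6 and Cdt1 were higher with clones H and V, where edgeR called no MCM gene higher. Cdc6 was 46.0, 43.1, 37.6 and 55.2 CPM alone, 103, 69.8, 74.5 and 64.7 CPM with clone V and 76.6, 90.1, 64.0 and 53.1 CPM with clone H. The clone V libraries were all above the mono-culture and the lowest clone H library was within its range. The log2 fold changes were 0.78 ± 0.17 (adjusted p = 0.000291) and 0.64 ± 0.17 (adjusted p = 0.00236). Cdt1, which loads the helicase beside CDC6, was 156, 152, 153 and 156 CPM alone and higher with clone V (0.59 ± 0.09), KPC1 (0.48 ± 0.09), clone H (0.41 ± 0.09) and clone T (0.30 ± 0.09), the last not without clone T replicate 2. It was lower with clones K (-0.26) and M (-0.27), calls lost in 7 and 5 of 8 fits that left out 1 library.

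The 2 GINS subunits measured, which join the active helicase, parted. Gins1 rose with clone V (0.67 ± 0.13, adjusted p = 5.73e-05), KPC1 (0.61 ± 0.13, adjusted p = 0.000215) and clone H (0.43 ± 0.13, adjusted p = 0.00688). Gins2 fell by 0.42 on the log2 scale with KPC1 (adjusted p = 0.00734) and by 0.45 with clone T (adjusted p = 0.00479). With KPC1, Gins1 was 19.1, 21.3, 17.2 and 18.4 CPM against 11.7 to 13.5 alone, and Gins2 50.4, 46.6, 56.0 and 75.5 CPM against 73.4, 80.5, 75.2 and 75.7 alone, where KPC1 replicate 4 lay within the mono-culture range.

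E2f1 and the cyclin E gene Ccne1 were called in both directions, and the other cyclin E gene, Ccne2, only higher. E2f1 stood at 103, 106, 111 and 112 CPM alone and at 173, 147, 133 and 132 CPM with clone V, all above (0.44 ± 0.09, adjusted p = 0.000112). With clone N it was 82.8, 84.7, 90.5 and 83.8 CPM, all below (-0.34 ± 0.09, adjusted p = 0.0032). E2f1 was also called higher with clone H and KPC1 and lower with clones K and M, and those with KPC1, K and M were lost in 5 to 8 of the 8 fits that left out 1 library. Ccne1 was higher with clone H (0.38, not without clone H replicate 2) and clone V (0.31, lost in 4 of 8 such fits). It was called lower with clones N and T. Ccne2 with clone V was 148, 53.4, 80.8 and 96.3 CPM against 53.8, 61.2, 48.1 and 51.1 alone, with 1 library within the mono-culture range, at 0.82 ± 0.26 (adjusted p = 0.00719), and this call was lost without clone V replicate 1.

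Among the genes of the fork, Pcna showed the same 2-way pattern. It was 339, 339, 319 and 322 CPM alone, 489, 351, 410.5 and 425 CPM with clone V (0.35 ± 0.11, adjusted p = 0.00798) and 222, 247, 197 and 253 CPM with clone M (-0.52 ± 0.11, adjusted p = 0.000692). Fen1, the flap nuclease of Okazaki fragments, followed it: 0.43 with clone V and -0.40 with clone N. Lig1, the ligase that seals the same fragments, was lower in all 8 co-cultures, from -0.40 (clone T) to -0.19 (clone V), the call with V lost in 7 of 8 fits that left out 1 library. The DNA polymerase genes Pole and Pola1 were called only with clone N, at -0.46 and -0.49. Uhrf1, which keeps DNA methylation through replication, was lower in 7 co-cultures, most with clone N (152, 109, 113 and 111 CPM against 222, 242, 230.4 and 247 alone, -0.96 ± 0.14, adjusted p = 1.41e-06), and at adjusted p = 0.0505 with clone K. Chaf1a, of the chromatin assembly factor, was higher with clone V (0.37, adjusted p = 0.000797).

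**Figure D3:**
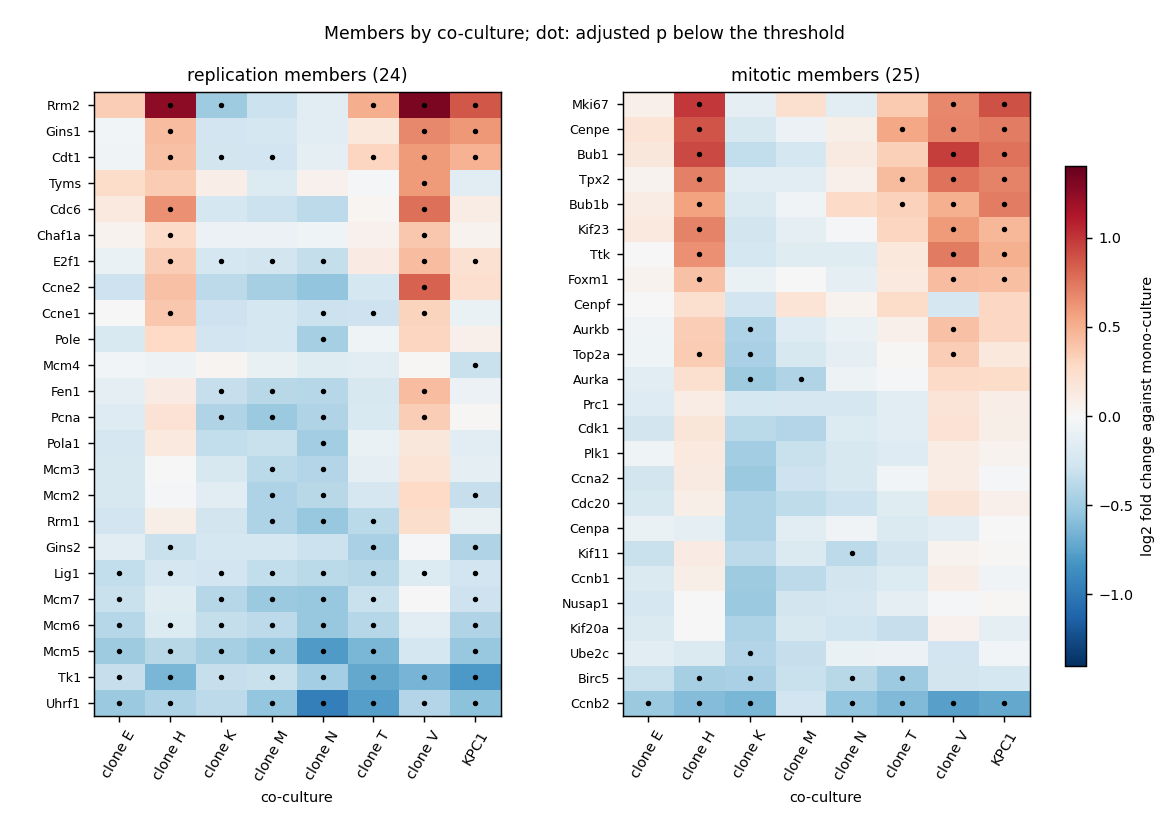
Log2 fold change against the mono-culture (colour, red higher and blue lower) of the 24 replication members (left) and the 25 mitotic members (right) in each of the 8 co-cultures, ordered by their mean, with a dot where the edgeR adjusted p was under 0.05. In clones H and V and KPC1, Rrm2, Gins1 and Cdt1 on the left and Mki67 to Foxm1 on the right are red, while Tk1, Uhrf1 and Ccnb2 are blue in every column.

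In the mitotic subset, 8 members were called higher in each of clone H, clone V and KPC1: Mki67, Cenpe, Bub1, Tpx2, Bub1b, Kif23, Ttk and Foxm1. All 8 calls in the 3 co-cultures held in each fit that left out 1 library. The share of all tested genes called higher in all 3 was not counted, so how unusual this overlap is cannot be told. The 3 comparisons share the mono-culture libraries, and clones V and H differed in few genes (0.097% higher and 0.291% lower with V). With KPC1 alone the mitotic share higher was near the 30.5% of all genes. Mki67 was 317, 278, 302 and 398 CPM alone, 656, 714, 716 and 489 CPM with clone H, 668, 518, 665 and 552 CPM with KPC1 and 547, 421, 643 and 458 CPM with clone V. Every library of these 3 groups was above every mono-culture library. The log2 fold changes were 0.99 ± 0.17 (adjusted p = 1.08e-05), 0.89 ± 0.17 (adjusted p = 3.37e-05) and 0.68 ± 0.17 (adjusted p = 0.000857).

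The spindle checkpoint kinases rose in the same 3 co-cultures. Bub1 was 47.3, 39.3, 39.5 and 47.5 CPM alone, 94.1, 59.3, 97.5 and 90.3 CPM with clone V (0.97 ± 0.19, adjusted p = 6.18e-05) and 64.5, 90.7, 88.4 and 86.7 CPM with clone H (0.93 ± 0.19, adjusted p = 0.000141), with no overlap. Bub1b, which encodes BUBR1, was 0.71 with KPC1 and Ttk, which encodes MPS1, was 0.72 with clone V. Cenpe, a kinetochore motor, was 0.88 with clone H and also higher with clone T (0.54 ± 0.15, adjusted p = 0.00241). Tpx2, the spindle assembly factor that activates Aurora A, was 165, 171, 159 and 184 CPM alone and 315, 249.6, 308 and 280.2 CPM with clone V (0.76 ± 0.11, adjusted p = 9.46e-07), and Kif23, the cytokinesis kinesin, was 0.69 with clone H. Foxm1, the transcription factor of mitotic genes, was 143, 130.3, 129 and 151 CPM alone and 199, 178, 188 and 180.4 CPM with clone V (0.43 ± 0.086, adjusted p = 7.33e-05).

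The mitotic cyclin genes and Cdk1 were not called higher than the mono-culture. Cdk1 was 162, 156, 144 and 162 CPM alone, 194, 152, 169 and 203 CPM with clone V and 146, 206, 163 and 185 CPM with clone H, and overlapped in both (0.20 ± 0.18, adjusted p = 0.334, and 0.17 ± 0.18, adjusted p = 0.439). Ccnb1 was 56.8, 58.2, 53.8 and 54.5 CPM alone and 61.1, 45.2, 54.9 and 77.6 CPM with clone V (0.096 ± 0.20, adjusted p = 0.702). Ccnb2 was lower in 7 of 8 co-cultures, at 109.9, 98.3, 113 and 113 CPM alone, 68.6, 59.0, 55.9 and 72.2 CPM with clone V (-0.77 ± 0.18, adjusted p = 0.000532) and 63.1, 45.3, 58.9 and 97.6 CPM with KPC1 (-0.71 ± 0.18, adjusted p = 0.00106). All 16 of these clone V, KPC1, clone H and clone T libraries were below the mono-culture minimum, at 98.3 CPM. With clone M it was not called (-0.27 ± 0.18, adjusted p = 0.296), though its 4 libraries were also below that minimum, and the calls with clones E and N were lost without 1 of several libraries.

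A further 10 mitotic members were called in no co-culture: Ccna2, Ccnb1, Cdc20, Cdk1, Cenpa, Cenpf, Kif20a, Nusap1, Plk1 and Prc1. Plk1, the Polo kinase, was 60.1, 64.1, 62.7 and 67.5 CPM alone and 50.8, 45.7, 31.3 and 53.0 CPM with clone K, all below, at -0.49 ± 0.18 (adjusted p = 0.0509). Every mitotic member had a negative fold change with clone K, and 6 were called: Top2a, Ccnb2, Aurka, Aurkb, Birc5 and Ube2c, of which only Ccnb2 kept its call in each fit that left out 1 library. Aurkb, the Aurora kinase of the chromosomal passenger complex, was 36.9, 38.8, 27.5 and 44.8 CPM with clone K and 76.97, 53.2, 67.2 and 68.7 CPM with clone V against 47.9, 48.1, 49.9 and 53.7 alone. Its call with V (0.42 ± 0.15, adjusted p = 0.0193) failed without clone V replicate 1 or mono-culture replicate 1. Birc5 encodes survivin of the same complex and was lower with clone T (41.1, 40.2, 36.9 and 48.2 CPM against 60.3, 60.5, 55.6 and 59.5 alone, -0.50 ± 0.15, adjusted p = 0.00589), while Aurkb was not called there (0.075 ± 0.15, adjusted p = 0.711). Top2a, the topoisomerase that untangles sister DNA, was 506, 459.9, 437 and 537 CPM alone and 615, 728, 593 and 539.9 CPM with clone H (0.35 ± 0.14, adjusted p = 0.0357), a call lost in 6 of 8 fits that left out 1 library.

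**Figure D4:**
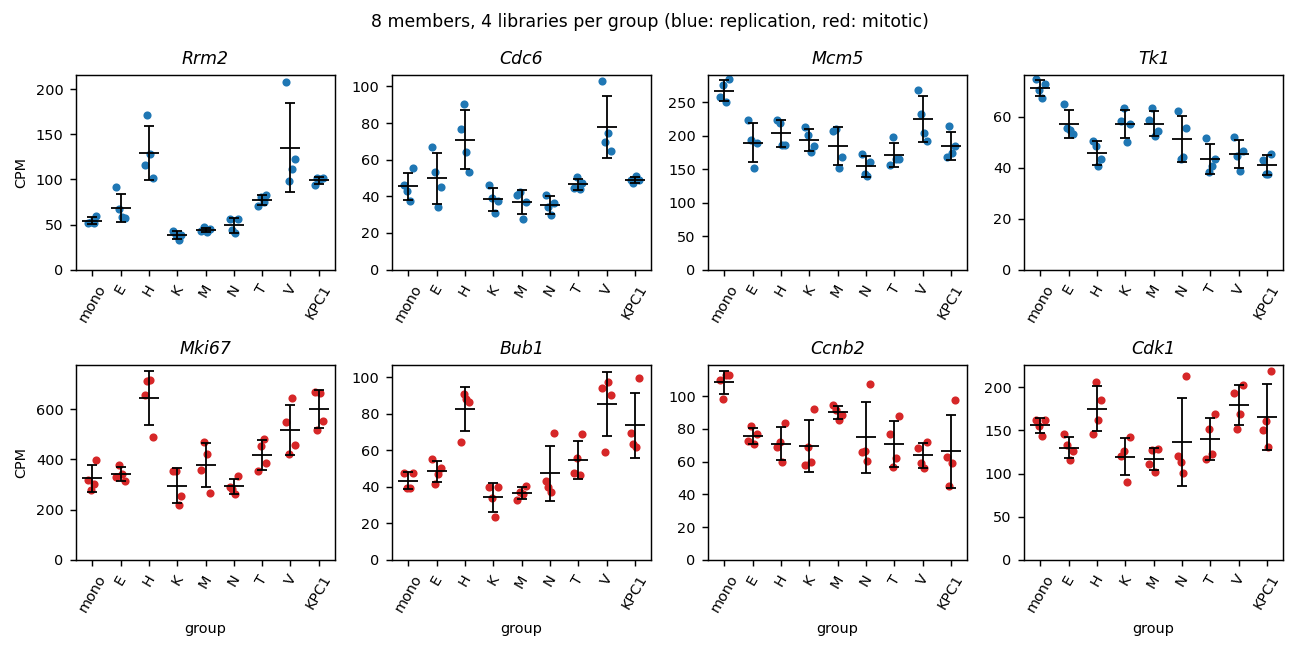
CPM of 8 members in each of the 36 libraries by group, with the group mean and SD (n = 4) in black, and linear axes that start at 0. Rrm2 and Cdc6 are highest with clones H and V, Mcm5 and Tk1 highest in the mono-culture, Mki67 and Bub1 raised with H, V and KPC1, and Ccnb2 highest in the mono-culture, while Cdk1 overlaps between most groups.

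Over the 8 comparisons with the mono-culture, 13 members were called only higher, 18 only lower, 8 in both directions and 10 in none. Of all tested genes 39.0% were called only higher, 36.9% only lower and 5.35% in both directions, and 81.2% were called at least once, so the number of members called at least once, 39 of 49, was near that of all genes. The 8 called in both directions were Rrm2, Cdt1, E2f1, Ccne1, Pcna and Fen1 of the replication subset and Top2a and Aurkb of the mitotic subset. The 18 only lower were the 6 MCM genes, Gins2, Rrm1, Tk1, Pole, Pola1, Lig1 and Uhrf1 of the replication subset and Aurka, Birc5, Ccnb2, Kif11 and Ube2c of the mitotic subset. Among these the spindle motor gene Kif11 was called once and Ube2c, which encodes a ubiquitin-conjugating enzyme of the anaphase-promoting complex, once. All 24 replication members and 15 of the 25 mitotic members were called in at least 1 co-culture. For the mean of the 7 clones against the mono-culture, 1 higher and 8 lower of the replication members and 2 higher and 2 lower of the mitotic members were called, against 24.3% of all genes higher and 24.9% lower. The 3 higher were Rrm2, Cenpe and Tpx2, and their number became 0 without mono-culture replicate 1 or 3, 1 without its replicate 2 and 5 without clone K replicate 3. All 13 became 8 without mono-culture replicate 3.

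The second comparison asked whether the members differed among the tumour lines, without the mono-culture. In an F-test over the 7 clonal co-cultures 38 of 49 members were called (21 of 24 replication and 17 of 25 mitotic), against 67.5% of all genes. Rrm2 (adjusted p = 5.83e-11), Cdt1 (adjusted p = 4.05e-10) and Tpx2 (adjusted p = 2.74e-09) had the smallest adjusted p-values among those members. The mitotic share was near that of all genes. Of the members lower than the mono-culture in 7 or 8 co-cultures, Lig1 (adjusted p = 0.158) and Ccnb2 (adjusted p = 0.256) were not called, while Tk1 (adjusted p = 0.0022), Mcm5 (adjusted p = 0.00527), Mcm6 (adjusted p = 0.000436) and Uhrf1 (adjusted p = 0.00244) were.

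Over the 28 pairs of co-cultures, 454 of 1372 member tests were called (33.1%), 37.1% of the replication and 29.3% of the mitotic tests, against 27.5% of all gene tests. Clone V and clone H did not differ in any member, by edgeR or DESeq2, with 6 members at an unadjusted p under 0.05. Their differences ran from -0.46 ± 0.17 (Cenpf) to 0.41 on the log2 scale. Few genes of any kind differed between them (0.097% higher and 0.291% lower with V).

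Against clones E, K, M and N clone V stood above in both subsets. Against clone K, 18 higher and 1 lower replication and 20 higher and 0 lower mitotic members were called in V, where all genes gave 26.8% and 28.1%. Against clone N it was 20 higher and 0 lower and 12 higher and 0 lower, where all genes gave 20.9% and 22.6%, and the mitotic count became 19 without clone N replicate 4. Against clone M it was 19 higher and 1 lower and 16 higher and 2 lower, where all genes gave 28.3% and 29.7%, and the 3 lower became 1 without clone V replicate 3. Against clone E it was 17 higher and 1 lower and 14 higher and 0 lower, where all genes gave 20.6% and 21.7%, and the 14 mitotic became 9 without clone V replicate 1 or clone E replicate 3. The share of members higher was above that of all genes in each of these 4 pairs. Clone H also stood above these clones in both subsets. Its median against clone E was 0.23 over replication and 0.38 over mitotic members. Against clone H, clones K, M and N had replication medians of -0.35, -0.47 and -0.52 and mitotic medians of -0.59, -0.45 and -0.36.

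Rrm2 was the member furthest apart, at 1.82 ± 0.17 (adjusted p = 1.36e-09) between V and K, followed by Bub1 at 1.31 ± 0.19 (adjusted p = 1.2e-06). Here Ccnb1 and Cdk1 were also higher with V, at 0.60 ± 0.20 (adjusted p = 0.0113) and 0.58 ± 0.18 (adjusted p = 0.0059). Tk1 was lower with V than with K, at -0.33 ± 0.11 (adjusted p = 0.0126).

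By calls the subsets parted, among other pairs, between clone V and each of clone T and KPC1, and between KPC1 and clone K. By size, clone V against T had medians of 0.38 over replication and 0.29 over mitotic members. KPC1 against V had -0.32 and -0.056, and KPC1 against K 0.14 and 0.53. Further pairs parted too: T against K had 0.092 and 0.39, KPC1 against E 0.031 and 0.29, and N against K -0.13 and 0.25. Some pairs did not part: T against M had 0.17 and 0.18, T against H -0.24 and -0.27, and KPC1 against N 0.30 and 0.32. Clone V against clone T gave 19 higher and 0 lower replication and 4 higher and 1 lower mitotic members, where all genes gave 11.4% and 12.5%. Leaving out clone V replicate 1 took that replication count to 8 and leaving out clone T replicate 1 to 12, and the 4 mitotic became 1, 1 and 2 without clone V replicate 1, clone T replicate 1 or clone T replicate 3. KPC1 against clone V gave 0 higher and 10 lower replication and 1 higher and 0 lower mitotic members, where all genes gave 6.3% and 4.43%. Those 10 became 4 without KPC1 replicate 1 or clone V replicate 1. They included Tyms (-0.76 ± 0.16, adjusted p = 0.00273), Mcm2 (-0.60 ± 0.13, adjusted p = 0.0033) and Fen1 (-0.51 ± 0.11, adjusted p = 0.00257), while the mitotic call was Cenpf.

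KPC1 against clone K gave 7 higher and 2 lower replication and 19 higher and 0 lower mitotic members, where all genes gave 28.6% and 27.6%. The 19 mitotic members became 12 without KPC1 replicate 4 or clone K replicate 3. Against clone N it was 14 higher and 1 lower and 9 higher and 0 lower, where all genes gave 17.8% and 17.5%. There the mitotic 9 became 18 without clone N replicate 4, and the replication 14 became 7 and 9 without clone N replicates 2 and 3.

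Among clones E, K, M and N few members differed. The 6 pairs among them gave 1 (K and E, 11.5% of all genes), 2 (M and E, 11.5%), 0 (N and E, 1.27%), 0 (M and K, 2.24%), 5 (N and K, 21.7%) and 1 (N and M, 19.2%) of 49 members called. In each of these pairs the share of members was below that of all genes. For N and E 10 members, and for M and K 4, were at an unadjusted p under 0.05, and DESeq2 called 0 in both. The 5 for N and K became 1 without clone N replicate 4, 3 without clone N replicate 2 and 2 without clone K replicate 1 or 2.

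Wider lists of the same pathways were counted beside the set. Of 42 other replication genes, 22 were higher and 2 lower with clone V, 17 and 1 with clone H, 9 and 8 with KPC1, and 1 and 19 with clone N, with medians of 0.30, 0.21, 0.050 and -0.27 on the log2 scale. Clones E, K, M and T gave 1 and 6, 0 and 12, 0 and 12, and 2 and 12. Both shares with KPC1 were below those of all genes, and the lower shares with clones E and T were near them. Of 52 other mitotic genes, 26 were higher and 2 lower with clone V, 27 and 2 with clone H, 24 and 2 with KPC1, and 0 and 15 with clone K, with medians of 0.32, 0.33, 0.25 and -0.33. Clones E, M, N and T gave 4 and 6, 1 and 5, 4 and 8, and 7 and 4, where both shares were below those of all genes. For the mean clonal comparison the lowest of the other replication genes were Rpa1 (-0.37 ± 0.066), a subunit of the single-strand binding protein, and Asf1b (-0.35 ± 0.11), a histone chaperone, and the highest was Cdca7 (0.42 ± 0.10), followed by Clspn, which was not called (0.18 ± 0.094, adjusted p = 0.119). Among the other mitotic genes the highest were Psrc1 (0.68 ± 0.14) and Trip13 (0.58 ± 0.13) and the lowest Iqgap3 (-0.61 ± 0.10) and Nuf2 (-0.49 ± 0.10), the last a kinetochore protein that binds microtubules.

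Of 34 genes of G1 and cell cycle control, 20 were higher and 9 lower with clone V, 5 and 6 with clone K, and 8 and 8 with clone N. The counts were 18 and 9 with clone H, 19 and 9 with KPC1, 11 and 9 with clone T, 9 and 8 with clone E and 6 and 5 with clone M. The lower shares with clones H, T and V and KPC1 and both shares with clone N were near those of all genes given above. The 2 highest of the mean clonal comparison were Ccnd1, cyclin D1 (1.47 ± 0.25, adjusted p = 1.87e-05), and Myc (1.404 ± 0.20, adjusted p = 1.16e-06). The 2 lowest were the inhibitor genes Cdkn1c, which encodes p57 (-2.83 ± 0.16, adjusted p = 1.81e-14), and Cdkn2c (-0.86 ± 0.088, adjusted p = 2.55e-09). Cdkn1c was 19.3 ± 1.86 CPM alone, 3.24 ± 1.12 CPM with clone N and 1.74 ± 0.388 CPM with clone V (mean ± SD, n = 4). The replication members were mostly lower with N and mostly higher with V, and the part of Cdkn1c in their levels was not tested.

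Epithelial markers were detected in the co-cultures in which members rose and in those in which they fell. Their sum was 31.9 to 232 CPM in clone V libraries and 72.1 to 276 CPM in clone H, where most members called were higher. It was 447 to 694 CPM with clone N and 20.02 to 315 CPM with clone K, where all members called were lower, and 195 to 623 CPM with KPC1. With clones E and M, where all members called were also lower, it was 269 to 522 and 55.8 to 559 CPM. With clone T, where most were lower, it was 309 to 867 CPM. Of the 10 fibroblast markers, 3 were called higher and 5 lower with clone H, 2 and 5 with clone V, and 4 and 6 with both clone T and KPC1. With clones E, K, M and N 3, 2, 2 and 4 were called higher and none lower. Clone V had the lowest mean epithelial sum of the co-cultures, 109 CPM, and clone N the highest, 552 CPM. Tumour cell RNA of the members cannot be told apart from fibroblast RNA in a bulk library, and the part of either marker list in the results was not tested.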

How the data were processed

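RNA of sorted mouse pancreatic fibroblasts was sequenced as 76 bp pairs in 36 libraries (9 groups of 4), of 12532122 to 21985538 counts. The authors deposited raw counts per gene for 39017 genes and an RPKM table for 37746 genes. The submitters' processing notes name STAR, featureCounts, edgeR and mm10. Versions, annotation and strand setting are not given in the sources used here, so overlapping genes may share reads.

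From the counts, genes with low counts were filtered on group size, libraries were scaled by TMM and all 36 libraries were fitted with edgeR 4.0.16 in R 4.3.3 (quasi-likelihood, robust), with Benjamini-Hochberg adjustment over 14439 genes and a threshold of 0.05. CPM and the library means use the TMM scaling and, on the log2 scale, a prior count of 1. RPKM was used only to compare levels between genes and in an alternative limma 3.58.1 fit. Alternatives were DESeq2 1.42.0, other scalings and filters, a replicate block and leaving out each library. Scripts were tested on simulated data. Replicates of a group differed by more than sampling noise.

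The members and the other gene lists were chosen with earlier results of these data known. All 49 members could be named. Values per library were given for 16 genes picked for their roles and for the highest and lowest changes of the mean clonal comparison, and those of Tk1, Mcm6, Gins1, Gins2 and Bub1 were added after they had been seen. Those of Tpx2 and the mono-culture values of Cdt1 are also given and lie outside these picks. In each other list the 2 highest and 2 lowest genes of that comparison were named.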

Additional observations from a re-analysis of the deposited data

Results flagged for a closer look

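In 7 of 171 sets of 4 libraries, 1 library stood apart from the other 3 by a gap past the 95% critical value of Dixon's test, where chance at 1 in 20 gives 8.55. Clone V replicate 1 had the highest replication mean of its group, 7.54 against 7.14 to 7.16, a gap of 0.945 of the range. Rrm2 was lowest in KPC1 replicate 1 (gap 0.964). Ccne2 was highest in KPC1 replicate 4 (0.830). E2f1 was highest in clone E replicate 1 (0.857) and Aurkb in clone M replicate 2 (0.842). In clone N replicate 4, Cdk1 (0.830) and Aurkb (0.924) were both highest, and this library also had the highest mitotic mean of its group, 6.90 against 6.11 to 6.33. Replicate 4 was also the library with the highest mitotic mean in the mono-culture, in clones K, T and V and in KPC1.

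The level of 38 of the 49 members differed among the 7 clonal co-cultures in the edgeR F-test, which tests the difference between tumour lines itself, as did 67.5% of all tested genes. The mitotic members, 17 of 25, were near that share.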

How the results depend on the processing

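The mitotic median with KPC1 turned from 0.089 to -0.0030 with library size only and to -0.0057 and -0.0059 in limma on log2 RPKM with a pseudocount of 1 and 0.1. The difference between the replication and mitotic means with clone V, 0.024, ran from -0.050 to 0.11 when 1 library was left out. Of 404 values of comparisons, 387 kept their size or call. A count was taken as kept when it stayed within a set fold of the main count, so smaller moves are among the 387. The members called with clone E, 7, became 12 with a replicate block and 13 in a fit of only the 8 libraries compared. Those with clone K, 16, became 9 with no filter, 25 at an adjusted p under 0.1, 28 with the replicate block and 27 in the fit of 8 libraries, and those with clone M, 14, became 27 in that fit. By subset, clone K had 14 replication and 14 mitotic members lower with the replicate block. Clone M had 17 and 10 lower in the fit of 8 libraries. The difference between the replication and mitotic means relative to the mono-culture moved from -0.14 to -0.015 (clone H) and from -0.14 to -0.031 (clone M) with the median over members.

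Leaving out 1 library gave 5 to 7 members with clone E, 20 to 24 with H, 5 to 15 with K, 7 to 14 with M, 14 to 24 with N, 13 to 16 with T, 21 to 25 with V, 20 to 23 with KPC1 and 8 to 16 for the mean clonal comparison. The fit with the replicate block called more members in each of the 8 comparisons with the mono-culture, for example 31 with clone V and 23 with KPC1, and 547 in place of 454 over the 28 pairs, for example 32 in place of 24 between clones V and T and 38 in both fits between V and M. The numbers were not taken to pair the libraries, since the labels do not say so, and whether they do was not tested. The deviations of same-numbered libraries correlated above 0.1 in 5 of 32 pairs of mono-culture and co-culture (-0.58 to 0.46). Among pairs of 2 co-cultures they did so in 63 of 112 (-0.52 to 0.69, median 0.14). In their titles the co-culture libraries are numbered in runs of the same replicate, with the mono-culture libraries last. The replication minus mitotic mean was lowest in replicate 4 in most groups, and whether that measure follows the replicate was not tested. For the mean clonal comparison Rrm2 was not called with library size only (0.29) or in limma on log2 RPKM with a pseudocount of 1 (0.27) or 0.1 (0.27).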
